A study of Caenorhabditis elegans with 50 samples.

Results

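The lipid binding proteins lbp-1 to lbp-9 of Caenorhabditis elegans were followed across 10 strains, by taking the gene entries of the deposited count table whose name is exactly one of these 9 symbols. Of the 9 genes, 8 had an entry of their own among the 33458 entries that name a gene. lbp-6 appeared only inside an entry shared with fnci-1, hrpf-1 and unc-37. lbp-4 had an entry, but it was listed at 0 in 40 of the 50 libraries together with its whole locus, so 7 members could be compared between strains.

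These genes encode small proteins of the fatty acid binding protein family, which hold a fatty acid or another lipid inside a barrel-shaped pocket and carry it through water. LBP-1, LBP-2 and LBP-3 carry signal sequences for secretion, whereas LBP-5, LBP-7 and LBP-8 act inside cells. LBP-8 carries lipids from the lysosome to the nucleus, downstream of the lysosomal lipase LIPL-4 and upstream of the nuclear receptors NHR-49 and NHR-80. Secreted LBP-3 takes lipid signals from fat tissue to neurons in the same LIPL-4 pathway. DAF-16 is the worm FOXO transcription factor, which the insulin receptor DAF-2 holds out of the nucleus and which loss of the germline also releases.

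The study asked which genes DAF-16 controls in long-lived worms, by sequencing polyA RNA from whole young adult animals. Each strain had 5 biological samples, and each sample gave 1 library. The single mutants daf-2(e1368) and daf-2(e1370), the 2 doubles of the latter, named daf-16(mu86);daf-2(e1370) and also daf-16(mg54);daf-2(e1370), the 2 doubles of the former, named daf-16(mu86);daf-2(e1368) and also daf-16(mg54);daf-2(e1368), and WT grew at 15 °C for 72 hours and then at 20 °C, and eggs of daf-2(e1370) were laid 6 hours early because it grows slowly. glp-1(e2141), which makes almost no germline when raised warm, and its doubles, named daf-16(mu86);glp-1(e2141) and also daf-16(mg54);glp-1(e2141), grew at 25 °C for 48 hours. Both daf-2 alleles lower insulin receptor function, and e1370 is the stronger of the pair. mg54 is a nonsense allele of daf-16 and mu86 is a deletion.

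Library totals, in units of 1000000 fragments, were 19.89 to 34.25 in the WT and daf-2 libraries, apart from replicate 2 of daf-2(e1370) with 2.37, and 13.82 to 23.81 in the glp-1 libraries. Mean daf-16 levels were 195 counts per 1000000 (CPM) in daf-2(e1370), 105 in its mg54 double and 179 in its mu86 double. They were 196, 99.9 and 187 CPM in daf-2(e1368) and its mg54 and mu86 doubles, and 215, 179 and 475 CPM in glp-1(e2141) and its doubles. daf-16 counts thus did not reach 0 in a double mutant, and in the mu86 double of glp-1(e2141), at 428 to 541 CPM, every library was above the single mutant, at 164 to 265 CPM. The DAF-16 target sod-3, a superoxide dismutase, was higher in each single mutant than in its mg54 double by 3.90 on the log2 scale for daf-2(e1370), 2.74 for daf-2(e1368) and 2.60 for glp-1(e2141), all called by edgeR's quasi-likelihood test. In both daf-2(e1370) doubles, replicates 0 and 1 stood apart from replicates 2 to 4, with summed sperm-specific msp transcripts of 59.1 to 457 CPM against 1270 to 1770 CPM.

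In WT animals the members spanned a wide range of levels. Per kilobase of exon, where CPM were divided by the exon length of each gene, the mean level was 816 CPM per kilobase for lbp-9 and 336 for lbp-2. It was 72.1 for lbp-5, 57.5 for lbp-1, 50.5 for lbp-3, 34.2 for lbp-7 and 2.69 for lbp-8. The WT libraries of lbp-5 and lbp-1 overlapped, as did those of lbp-1 and lbp-3, so the order of these 3 was not resolved. The other neighbours in the order did not overlap. In daf-2(e1370), lbp-1 came after lbp-9 and lbp-2 with 106 ± 11.5 CPM per kilobase (SD, n = 5), although its libraries overlapped those of lbp-4, the next in order. In glp-1(e2141), lbp-2 led with 1570 ± 232 CPM per kilobase. lbp-5, lbp-3, lbp-1 and lbp-9 followed, from 231 ± 77.2 to 179 ± 19.3, and each overlapped the next, so their order was not resolved.

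lbp-1 (chromosome X, 3259145 to 3259741, build ce10), one of the genes for secreted members, was higher with daf-16 intact in all 3 long-lived backgrounds, and below WT where daf-16 was mutant beside daf-2. Its levels in the 5 WT libraries were 34.3, 32.0, 28.2, 34.1 and 31.1 CPM. In daf-2(e1370) they were 61.9, 58.6, 47.6, 61.7 and 63.2 CPM, and in daf-2(e1368) they were 42.1, 41.5, 34.8, 35 and 37.1 CPM. Every daf-2 single mutant library was above every WT library, and the lowest of the daf-2(e1370) libraries was the shallow replicate 2.

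The daf-16 doubles of both daf-2 alleles lay low and close together. lbp-1 read 25.1, 22.1, 23.2, 27.8 and 24.7 CPM in the mg54 double of daf-2(e1370) and 22.1, 21.5, 23.1, 20.5 and 20.9 CPM in its mu86 double. It read 25.6, 24.9, 24.4, 27 and 22.4 CPM in the mg54 double of daf-2(e1368) and 25.2, 25.1, 22.3, 21.5 and 23.1 CPM in its mu86 double. The highest of these libraries, at 27.8 CPM, was below the lowest WT library, at 28.2 CPM.

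In the glp-1 family every lbp-1 library was above every WT library, and 1 of the 15 was below the highest library of daf-2(e1370). It read 94.9, 111, 89.9, 119 and 115 CPM in glp-1(e2141). It read 86.4, 77.0, 78.4, 82.8 and 89.8 CPM in the mg54 double and 62.9, 77.3, 66, 87.1 and 70.2 CPM in the mu86 double. The single mutant did not overlap either double, but its lowest library, at 89.9 CPM, was only just above the highest of the mg54 double, at 89.8 CPM.

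**Figure D1:**
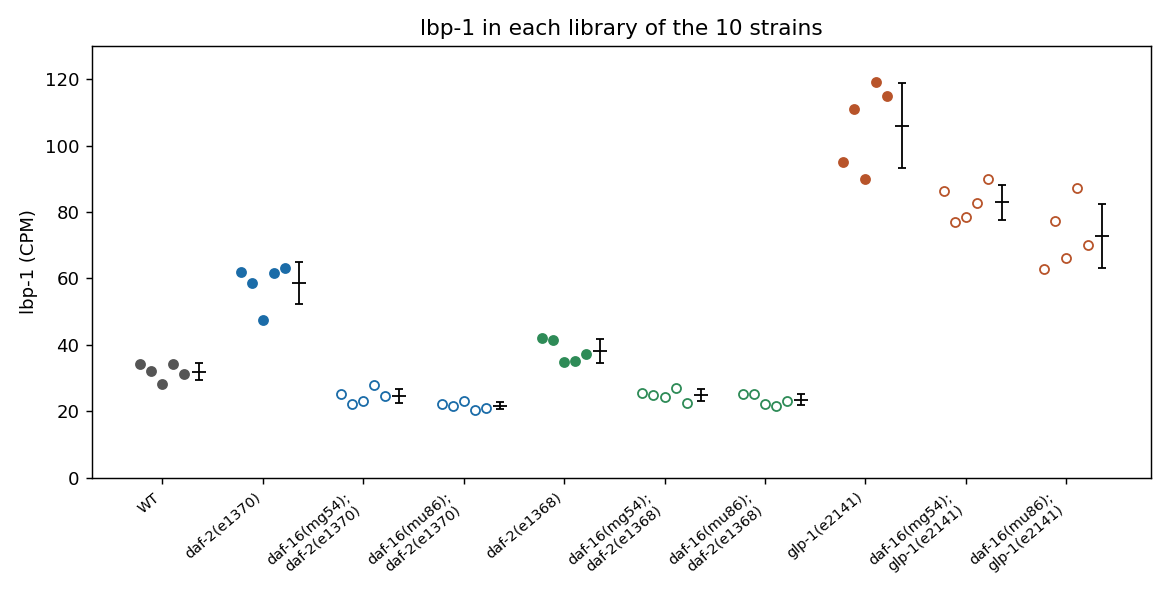
lbp-1 in CPM for each of the 50 libraries, by strain. Points are libraries (filled, daf-16 intact; open, daf-16 double mutants) and the bars beside them give the mean and SD of 5 libraries. Each single mutant lies above both of its doubles, and the 4 daf-2 doubles lie below WT.

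edgeR's quasi-likelihood test, with Benjamini-Hochberg adjustment over all entries tested, called lbp-1 in each of the 6 comparisons of a single mutant with a double. In daf-2(e1370) it was 2.55-fold higher than in the mg54 double (log2 difference 1.35 ± 0.09 SE, adjusted p = 2.7e-13) and 2.85-fold higher than in the mu86 double (1.51 ± 0.09, adjusted p = 1.51e-14). Of the 7 members tested, lbp-1 was the one called in the first comparison, where 22.3% of all 11774 entries were called, and 1 of 2 in the second, where 21.5% were called. In bulk samples such as these, fewer cells of a type and less RNA per cell cannot be told apart.

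In daf-2(e1368) lbp-1 was 1.52-fold higher than in the mg54 double (0.61 ± 0.09, edgeR adjusted p = 1.89e-05) and 1.61-fold higher than in the mu86 double (0.69 ± 0.09, adjusted p = 1.98e-06). It was the 1 member called of 7 in each, beside 2.83% and 4.24% of all entries. Here same-numbered libraries met the rule used for pairs, since all 5 pairs correlated over 0.1 with each double. Of the 5 daf-2(e1368) libraries, 3 were most like their own number in mg54 and 5 in mu86. The values above nevertheless come from the fit without a replicate block. lbp-1 was called in all 16 alternatives against each double, the block among them. Its log2 differences there were 0.56 to 0.63 for mg54 and 0.63 to 0.69 for mu86. Blocking on the replicate number took the calls over all entries from 333 to 696 and from 499 to 1030, with 1 member called either way.

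In glp-1(e2141) lbp-1 was 1.34-fold higher than in the mg54 double (0.43 ± 0.09, edgeR adjusted p = 0.0211) and 1.5-fold higher than in the mu86 double (0.59 ± 0.09, adjusted p = 0.00262). It was again the 1 member called, beside 3.04% and 3.1% of the 10391 entries tested. The call against the mg54 double was lost without replicate 0 of that double (adjusted p = 0.0526), without its replicate 1 (0.0523) and without replicate 4 of glp-1(e2141) (0.0568), and it held under 13 of 16 alternatives. The comparisons with the mg54 and mu86 doubles of one background share the libraries of the single mutant, so they are not independent of each other. The median log2 difference of the 7 members was 0.08 and -0.16 in daf-2(e1370) against mg54 and mu86, -0.10 in daf-2(e1368) against each, and 0.16 and 0.09 in glp-1(e2141). Over all entries these medians lay between -0.01 and 0.02, and the calls of lbp-1 stood beside members whose values fell on both sides of 0.

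Against WT, lbp-1 rose 1.91-fold in daf-2(e1370) (0.94 ± 0.09, edgeR adjusted p = 8.7e-10), the 1 member called of 7, where 18.2% of entries were called. In daf-2(e1368) it was 0.24 ± 0.09 above WT on the log2 scale with an adjusted p of 0.21, and 0 of 7 members were called, beside 2.06% of entries. Without daf-16 it was below WT. The mean of both daf-2(e1370) doubles differed from WT by -0.49 ± 0.07 on the log2 scale (edgeR adjusted p = 9.22e-05), and that of both daf-2(e1368) doubles by -0.41 ± 0.07 (adjusted p = 0.00393). In both cases lbp-1 was the 1 member called, and only 1.3% and 0.425% of all entries were called. These comparisons share the WT libraries.

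The size of the lbp-1 difference was not the same in every background. The daf-16 effect was taken as the log2 level of a single mutant less the average of its mg54 and mu86 doubles. That effect in daf-2(e1370) exceeded that in daf-2(e1368) by 0.78 ± 0.11 (edgeR adjusted p = 1.16e-05), and 4.71% of entries were called in this test. It exceeded the effect in glp-1(e2141) by 0.91 ± 0.11 (adjusted p = 6.76e-08), with 7.24% of 12340 entries called in a fit of all 50 libraries. Compared directly, lbp-1 was 1.62-fold higher in daf-2(e1370) than in daf-2(e1368) (0.69 ± 0.09, adjusted p = 9e-07), 1 of 2 members called beside 8.43% of entries. All these values rest in part on the same daf-2(e1370) libraries. Eggs of daf-2(e1370) alone were laid 6 hours early, so this timing goes with every comparison of that strain, including those with its doubles. The glp-1 strains also differed in growth temperature and germline. The part of timing, temperature or germline loss in these differences was not tested.

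The lbp-1 calls in daf-2(e1370) did not rest on the libraries that stood apart. Without replicates 0 and 1 of both doubles the log2 differences were 1.27 ± 0.10 and 1.46 ± 0.10, and without the shallow replicate 2 of daf-2(e1370) they were 1.43 ± 0.08 and 1.59 ± 0.08, all called by edgeR. Summed marker levels of 7 tissue lists overlapped between each daf-2 single mutant and its doubles. In glp-1(e2141) the embryo list, at 0 to 0.0605 CPM, lay just below the mu86 double, at 0.0636 to 0.2 CPM, and the other lists overlapped. For hypodermis the sums ran from 1120 to 2180 CPM in daf-2(e1370) and from 686 to 2660 CPM in its mg54 double. Medians lay further apart than these ranges show. The hypodermal median was 1230 CPM for daf-2(e1370), 2150 for its mg54 double and 2500 for its mu86 double. Replicates 2 to 4 of these doubles held 2150 to 2760 CPM. Pharyngeal medians were 22.9, 55.7 and 53.6 CPM in the same order of strains. The part of tissue make-up in the lbp-1 values was not tested.

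**Figure D2:**
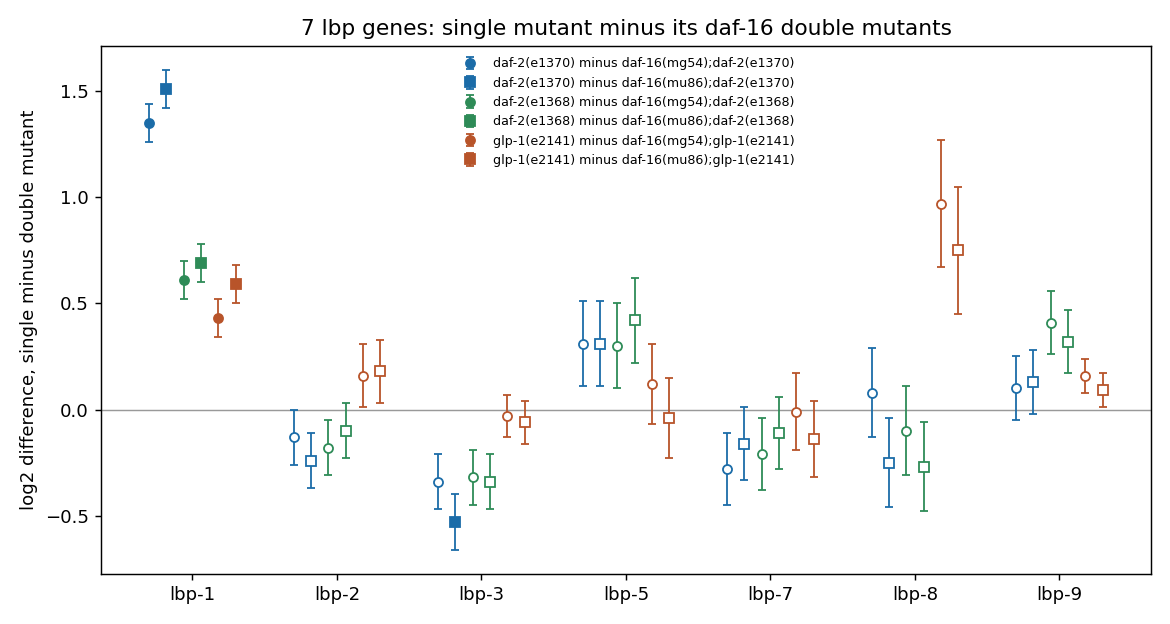
Log2 difference of each single mutant from its mg54 double (circles) and mu86 double (squares) for the 7 members tested, with bars of 1 SE. Filled symbols passed an adjusted p of 0.05. lbp-1 is the member with all 6 symbols filled, from 0.43 to 1.51, and lbp-3 has 1 filled symbol, at -0.53.

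lbp-3 (chromosome X, 3257393 to 3258051), for the secreted carrier of fat-to-neuron signals, lies next to lbp-1 and leaned the other way in the daf-2 strains. Its levels were 33.3, 32.7, 33.0, 27.9 and 30.7 CPM in WT and 25.3, 24.9, 16, 27.6 and 26.7 CPM in daf-2(e1370). They were 31.2, 25.3, 32.6, 38.1 and 37.3 CPM in the mg54 double of that allele and 34.8, 30.6, 38.4, 43.3 and 38.3 CPM in the mu86 double. Every daf-2(e1370) library was below every WT and every mu86 library, while the mg54 double overlapped it.

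Against the mu86 double lbp-3 was 0.692 of its level (log2 difference -0.53 ± 0.13, edgeR adjusted p = 0.00219), and against the mg54 double the value was -0.34 ± 0.13 (adjusted p = 0.0533). The first call was lost when only daf-2(e1370) and its mu86 double were fitted (adjusted p = 0.0649). The second comparison passed under 8 of 17 alternatives, among them the fit without replicates 0 and 1 of both doubles (-0.49, adjusted p = 0.000556). Against WT lbp-3 was at -0.31 ± 0.13 (adjusted p = 0.0918). Replicate 2 of daf-2(e1370), the shallow library, held the lowest lbp-3 value with 36 fragments. Without it the differences were -0.42 ± 0.11 from the mu86 double (adjusted p = 0.00534), -0.22 ± 0.11 from the mg54 double (adjusted p = 0.156) and -0.20 ± 0.11 from WT (adjusted p = 0.226).

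In daf-2(e1368) lbp-3 read 28.9, 28.9, 26.4, 29.9 and 27.2 CPM, from 33.3 to 39.1 CPM in the mg54 double and from 33.1 to 36.4 CPM in the mu86 double. Every single mutant library was below every double mutant library. The log2 differences were -0.32 ± 0.13 (edgeR adjusted p = 0.264) and -0.34 ± 0.13 (adjusted p = 0.155), and neither was called. Each passed in 1 of 16 alternatives, when only the single mutant and the double compared with it were fitted (edgeR adjusted p = 0.0397 and 0.00796). Neither passed with the replicate block. In glp-1(e2141) lbp-3 ranged from 116 to 152 CPM and overlapped both doubles, with log2 differences of -0.03 ± 0.10 and -0.06 ± 0.10.

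lbp-2 (chromosome X, 3260789 to 3261377), the third gene of this cluster for secreted members, passed in 0 of the 13 tests. It read 263, 262, 244, 262 and 246 CPM in WT and 243, 226, 143, 220 and 221 CPM in daf-2(e1370), every one of which was below WT. The log2 difference from WT was -0.22 ± 0.13 (edgeR adjusted p = 0.287). Against the mg54 and mu86 doubles of daf-2(e1370) the values were -0.13 ± 0.13 (adjusted p = 0.478) and -0.24 ± 0.13 (adjusted p = 0.214). Both passed without replicates 0 and 1 of the doubles, at -0.30 (adjusted p = 0.0452) and -0.44 (adjusted p = 0.00183). Without the shallow replicate 2 of daf-2(e1370), which held the lowest value of 143 CPM, they were 0.00 ± 0.11 (adjusted p = 0.992) and -0.11 ± 0.11 (adjusted p = 0.547).

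Library by library, lbp-2 and lbp-3 moved together within strains. Over 49 libraries, leaving out the shallow one, the deviations of log2(CPM + 1) from the strain mean had a Pearson r of 0.72 for lbp-2 with lbp-3, 0.50 for lbp-1 with lbp-2 and 0.58 for lbp-1 with lbp-3. Outside the cluster lbp-5 and lbp-7 had 0.75. Each point of such a pair shares its library, its depth and its RNA composition, and these values are given as a description.

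lbp-5 (entry spanning chromosome I, 6724654 to 6756356, a stretch with 7 entries), whose protein works with NHR-49 in fat metabolism, passed in 0 of the 13 tests. It ranged from 28.2 to 42.3 CPM in WT, from 20.9 to 43.2 CPM in daf-2(e1370) and from 34.0 to 54.7 CPM in daf-2(e1368). The doubles of daf-2(e1370) overlapped their single mutant, with log2 differences of 0.31 ± 0.20 from each. In daf-2(e1368) the differences were 0.30 ± 0.20 and 0.42 ± 0.20 (edgeR adjusted p = 0.758 and 0.371). The spread of lbp-5 was wide in the glp-1 family, at 69.2 to 169 CPM in glp-1(e2141) alone.

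lbp-7 (chromosome V, 13879541 to 13880100), for an intracellular member, lies close to lbp-8 and also passed in 0 of the 13 tests. Its libraries ranged from 13.5 to 20.9 CPM in WT, from 11.2 to 17.1 CPM in daf-2(e1370) and from 11.6 to 17.1 CPM in daf-2(e1368). Its log2 differences from the 6 doubles lay between -0.28 ± 0.17 and -0.01 ± 0.18. Against WT it stood at -0.37 ± 0.17 in daf-2(e1370) (edgeR adjusted p = 0.142).

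lbp-9 (entry spanning chromosome V, 2068447 to 2078568) was the member with the highest level per kilobase in WT, and passed in 0 of the 13 tests. It read 501, 562, 411, 355 and 473 CPM in WT and 506, 755, 557, 571 and 482 CPM in daf-2(e1368), which overlapped. Its log2 difference in daf-2(e1368) was 0.41 ± 0.15 from the mg54 double (edgeR adjusted p = 0.217) and 0.32 ± 0.15 from the mu86 double (adjusted p = 0.352). The gene Y40B10A.9 overlaps lbp-9 on the opposite strand and has its own entry, with 136 ± 9.29 CPM in WT (SD, n = 5). No source used here states whether counting used strand, so their reads cannot be told apart.

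lbp-8 (chromosome V, 13890771 to 13891249), for the lysosomal lipid carrier, was the lowest of the members compared, with 3 to 92 fragments per library. It read 1.23, 1.30, 1.61, 1.29 and 1.65 CPM in WT. It read 1.81, 2.32, 1.34, 1.78 and 1.33 CPM in daf-2(e1370) and 1.06, 1.01, 0.859, 0.669 and 1.58 CPM in daf-2(e1368). The highest daf-2(e1368) library overlapped the daf-2(e1370) range and the other 4 were below it.

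lbp-8 was 1.77-fold higher in daf-2(e1370) than in daf-2(e1368) (log2 difference 0.82 ± 0.21, edgeR adjusted p = 0.009). That call was lost when the daf-2 strains compared were fitted alone (0.0965). Neither allele passed against WT, with 0.36 ± 0.21 (adjusted p = 0.258) and -0.46 ± 0.21 (adjusted p = 0.391). Against the daf-16 doubles the values were 0.08 ± 0.21 and -0.25 ± 0.21 in daf-2(e1370), and -0.10 ± 0.21 and -0.27 ± 0.21 in daf-2(e1368), none of them called.

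In glp-1(e2141) lbp-8 read 5.29, 3.54, 1.76, 2.90 and 3.60 CPM. It read 1.91, 1.90, 1.82, 1.81 and 1.71 CPM in the mg54 double and 1.04, 2.05, 2.03, 3.56 and 1.72 CPM in the mu86 double. The single mutant overlapped both, through 1 low library against the mg54 double. The log2 differences were 0.97 ± 0.30 (edgeR adjusted p = 0.103) and 0.75 ± 0.30 (adjusted p = 0.225), and neither passed. The daf-16 effect in daf-2(e1370) was below that in glp-1(e2141), with a log2 difference of -0.97 ± 0.30 (edgeR adjusted p = 0.038), but this call held under only 22 of 37 alternatives and the adjusted p reached 0.138 without replicate 0 of glp-1(e2141). It was 0.0725 without replicates 0 and 1 of the daf-2(e1370) doubles and 0.087 without the shallow replicate 2.

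lbp-4 could not be compared. Its entry belongs to a stretch of chromosome V from 7731448 to 8316095 with 164 entries, and in 8 strains all 164 were listed at 0 in all libraries. In daf-2(e1370) 105 of the entries were above 0 and lbp-4 read 51.4, 57.7, 27.6, 36.6 and 41.9 CPM. In glp-1(e2141) 111 were above 0 and lbp-4 read 14.4, 13, 9.38, 13.1 and 17.0 CPM. A zero shared by a whole locus is no measure of lbp-4, and no difference is drawn from it.

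lbp-6, for another member of the family, had no value of its own. The entry that holds it with fnci-1, hrpf-1 and unc-37 read 593 ± 15.4 CPM in WT and 618 ± 32.2 in daf-2(e1370) (SD, n = 5), and its reads cannot be assigned to lbp-6.

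**Figure D3:**
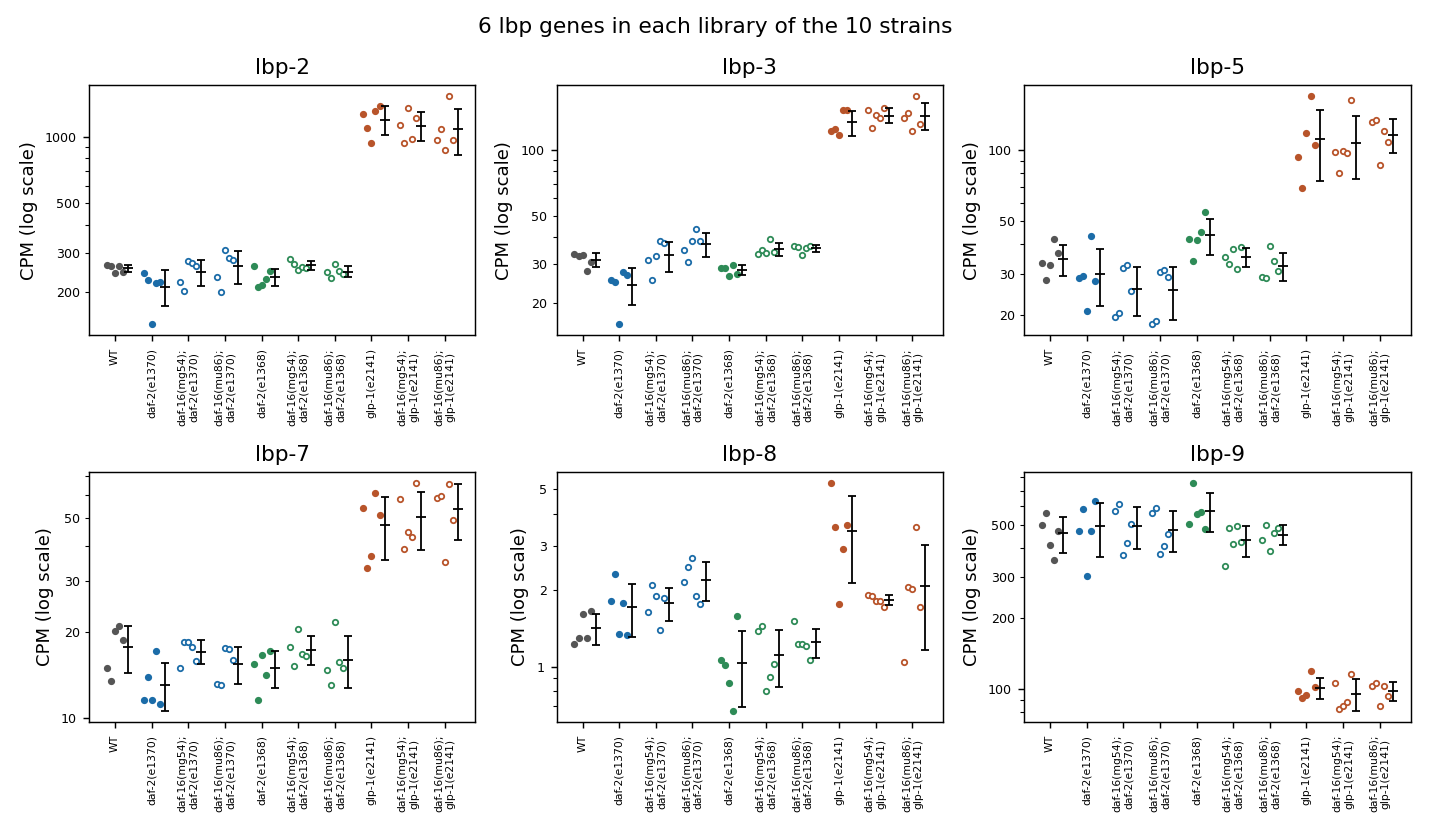
CPM of the other 6 members tested, on log axes, for each library by strain (filled, daf-16 intact; open, daf-16 double mutants), with the mean and SD of 5 libraries beside each group. lbp-2, lbp-3, lbp-5 and lbp-7 are higher in all 15 glp-1 family libraries than in the other 35, lbp-9 is lower, and lbp-8 overlaps.

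For 5 of the 7 members the libraries of the glp-1 family did not overlap those of the other strains. This was common among all genes, since 57.4% of 12340 entries did not overlap either, 30.5% being higher and 26.9% lower in the glp-1 family. lbp-2 ranged from 875 to 1520 CPM in the 15 glp-1 family libraries and from 143 to 308 CPM in the other 35. lbp-3 ranged from 116 to 175 CPM against 16 to 43.3 CPM, and lbp-5 from 69.2 to 169 CPM against 18.4 to 54.7 CPM. lbp-7 ranged from 33.4 to 66.2 CPM against 11.2 to 21.6 CPM.

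lbp-9 ran the other way, from 82.5 to 119 CPM in the glp-1 family against 303 to 755 CPM elsewhere. lbp-1, at 62.9 to 119 CPM against 20.5 to 63.2 CPM, overlapped through daf-2(e1370), and lbp-8 overlapped broadly. The order of the 3 glp-1 strains among themselves was not resolved for lbp-2, lbp-3, lbp-5, lbp-7 or lbp-9, whose neighbours overlapped.

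Germline loss, growth at 25 °C and the length of that growth all go with the glp-1 family and cannot be told apart. Levels were therefore not tested between families. The contrast of the daf-16 effects in daf-2(e1370) and glp-1(e2141) was tested and carries the same limit. On the log2 scale the median of 10365 entries was itself 0.60 higher in glp-1(e2141) than in WT. Beside that shift lbp-2 differed by 2.22, lbp-3 by 2.08, lbp-1 by 1.73, lbp-5 by 1.68, lbp-7 by 1.42, lbp-8 by 1.27 and lbp-9 by -2.19. The median was taken with a small offset added to each mean, and the member values without one. They are thus not on quite the same scale, which matters most for the sparse lbp-8. Scaling by library totals alone moved the median to 0.47 and the members by about as much, to 2.09 for lbp-2 and -2.31 for lbp-9, with every direction kept.

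Tissue markers differed with the family too, though not all of them without overlap. The 8 oogenic germline entries used, of 13 listed genes, summed to 8.98 to 31.0 CPM in the glp-1 family and to 4480 to 8950 CPM elsewhere. The 4 hypodermal entries used, of 5 listed, summed to 7060 to 10400 CPM against 686 to 2870 CPM. The 4 intestinal entries used, of 7 listed, summed to 2750 to 7240 CPM against 1340 to 3430 CPM, and the 4 body wall muscle entries used, of 6 listed and with pat-10 at 0 in all libraries, to 1040 to 3420 CPM against 306 to 2050 CPM. The intestinal and body wall muscle ranges overlapped between the families. So did the pharyngeal sums, at 13.4 to 210 CPM against 8.37 to 86.9 CPM. The part of tissue make-up in the lbp values was not tested here either. Y40B10A.9, opposite lbp-9, went down with it, to 45.5 ± 3.86 CPM in glp-1(e2141).

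With both double mutants of daf-2(e1370) pooled, 3 of the 7 members did not overlap between replicates 0 and 1 and replicates 2 to 4. Of 11774 entries, 60.6% did not overlap in this way, so such a split was common among all genes. lbp-2 ranged from 199 to 232 CPM in the 4 libraries of replicates 0 and 1 and from 260 to 308 CPM in the 6 libraries of replicates 2 to 4. lbp-5 ranged from 18.4 to 20.5 CPM against 25.3 to 32.6 CPM, and lbp-9 from 563 to 612 CPM against 373 to 503 CPM. The split did not separate lbp-1, at 21.5 to 25.1 CPM against 20.5 to 27.8 CPM, nor lbp-3, lbp-7 or lbp-8.

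The summed msp transcripts, which mark sperm, were low in the same 4 libraries, as given above, and the oogenic germline sum was high, at 8370 to 8670 CPM against 4720 to 6650 CPM. Hypodermal markers summed to 686 to 1440 CPM against 2150 to 2760 CPM, and body wall muscle markers to 306 to 630 CPM against 1100 to 1240 CPM. Their part in the lbp-2, lbp-3, lbp-5, lbp-7 and lbp-9 values was not tested. The labels name no stage or batch that separates these replicates.

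**Figure D4:**
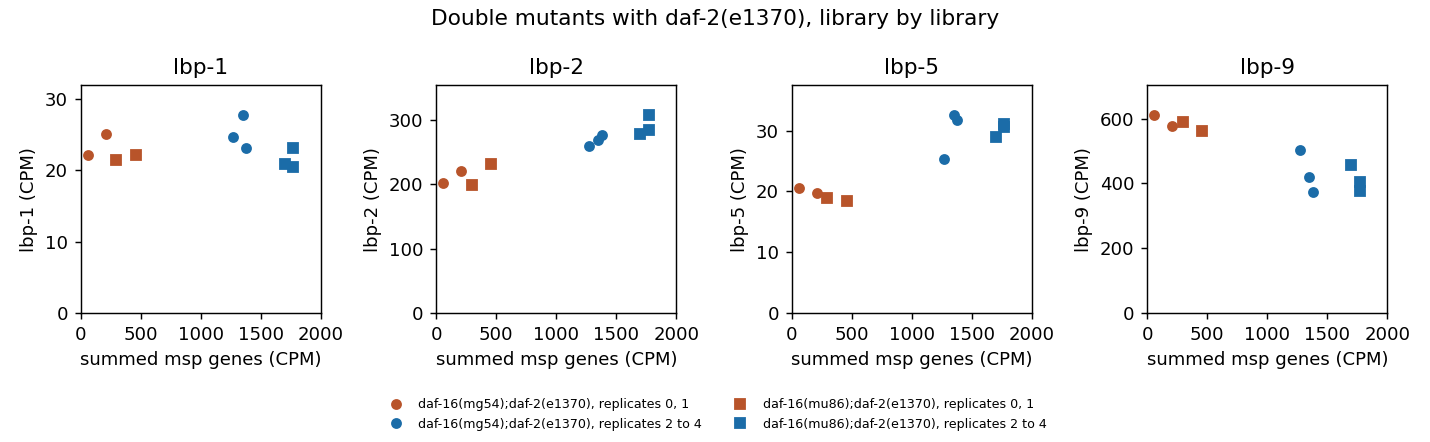
CPM of lbp-1, lbp-2, lbp-5 and lbp-9 (vertical axes) against the summed CPM of the msp genes (horizontal axes) in the 10 libraries of the daf-2(e1370) doubles (circles, mg54; squares, mu86). Replicates 0 and 1, in orange, are lower for lbp-2 and lbp-5, higher for lbp-9 and within the range of replicates 2 to 4, in blue, for lbp-1.

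Around the members, genes of the LIPL-4 and LBP-8 route gave 1 call of 5 tested in each comparison of a single mutant with a double, namely lipl-4, the lysosomal lipase itself. Over all entries, 22.3% and 21.5% were called in daf-2(e1370) against mg54 and mu86. The shares were 2.83% and 4.24% in daf-2(e1368), and 3.04% and 3.1% in glp-1(e2141). lipl-4 was higher by 1.49 ± 0.26 and 2.04 ± 0.26 on the log2 scale in daf-2(e1370) (edgeR adjusted p = 4.35e-05 and 3.63e-07 against mg54 and mu86). It was higher by 1.03 ± 0.26 and 1.27 ± 0.26 in daf-2(e1368) and by 2.49 ± 0.36 and 1.48 ± 0.34 in glp-1(e2141). The other 4, among them the receptor genes nhr-49 and nhr-80, were not called in these tests, and the list median in daf-2(e1370) against mg54 was 0.34, beside 0.02 over all entries. lbp-8 and lbp-3, the carriers of this route, were not called higher in any of the 6 comparisons.

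The other fatty acid carriers of the worm are the secreted fatty acid and retinol binding proteins far. They gave 0 calls of 7 in daf-2(e1368) against either double, beside 2.83% (mg54) and 4.24% (mu86) of all entries. In daf-2(e1370) against the mg54 double 3 of 7 tested were higher and 1 lower, beside 22.3% of all entries called. far-3 was higher by 3.87 ± 0.33 on the log2 scale, far-7 by 3.76 ± 0.57 and far-5 by 1.86 ± 0.33, and far-6 was at -0.80 ± 0.17 (edgeR adjusted p = 8.89e-11, 6.31e-06, 9.35e-05 and 0.000603). Against the mu86 double 3 of 7 were higher and 3 lower, beside 21.5% of all entries called. The lower ones were far-1, far-2 and far-6. In glp-1(e2141) against mg54 only far-6 was called of 8 tested, at -0.40 ± 0.09, beside 3.04% of all entries.

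Of the NHR-49 and NHR-80 target genes, 3 of 6 tested were higher and 1 lower in daf-2(e1370) against the mg54 double. Over all entries 22.3% were called in that comparison. icl-1, of the glyoxylate cycle, was at 2.85 ± 0.25 on the log2 scale, hacd-1, of fatty acid oxidation, at 0.79 ± 0.15 and the desaturase gene fat-5 at 0.74 ± 0.19. The desaturase gene fat-7 was at -1.86 ± 0.19 there (edgeR adjusted p = 5.92e-09). In glp-1(e2141) fat-7 was at 1.73 ± 0.28 against mg54 (adjusted p = 0.00279) but at 0.18 ± 0.27 against mu86 (adjusted p = 0.843). The carnitine palmitoyltransferase gene cpt-5 was lower than in the mu86 double in both daf-2 alleles, at -0.74 ± 0.16 in each (adjusted p = 0.00106 in e1370 and 0.0041 in e1368), and lower than in the mg54 double in e1368, at -0.59 ± 0.16 (0.04). The desaturase gene fat-6 was lower in daf-2(e1368) than in its mu86 double, at -0.33 ± 0.08 (adjusted p = 0.00682). Of 3 acyl-CoA binding proteins tested, 1 was called in daf-2(e1370) against each double, and 0 in daf-2(e1368) against either. Over all entries 22.3% and 21.5% were called in daf-2(e1370) against mg54 and mu86, and 2.83% and 4.24% in daf-2(e1368). The gene called was maa-1, at 0.78 ± 0.13 in daf-2(e1370). The nuclear receptor and cofactor list gave 0 of 4 calls in daf-2(e1370) against mg54, and the lipid droplet list 0 of 1, beside 22.3% of all entries. In daf-2(e1368) nhr-66 of the former was called against both doubles, at 0.40 ± 0.11 and 0.42 ± 0.11 (edgeR adjusted p = 0.0457 and 0.0278), and sbp-1, for a sterol regulatory element binding protein, was lower than in the mu86 double, at -0.53 ± 0.15 (0.0426). acs-22, of the lipid droplet list, was called against WT in daf-2(e1370), at 0.28 ± 0.09 (0.0325). All 5 DAF-16 reference targets, which are sod-3, mtl-1, dod-3, lea-1 and hsp-12.6, were higher in daf-2(e1370) than in its mg54 double, with a median of 3.90, beside 22.3% of all entries called. In daf-2(e1368) against mg54, 4 of 5 were called, with a median of 2.74, beside 2.83% of all entries called.

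The genes most like each member over the 10 strain means of log2(CPM + 1), among 6377 entries searched, were ranked by Pearson r as a description. For lbp-1 they were gsnl-1, F38B6.4 and F55H12.4, with r of 0.992, 0.991 and 0.991. The gap between the glp-1 family and the rest enters every such r. Over the 7 WT and daf-2 strains alone the 3 values were 0.99, 0.98 and 0.98.

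The strain means of gsnl-1 show that likeness. They were 30.0 CPM in WT, 56.4 in daf-2(e1370), 25.2 and 25.7 in its mg54 and mu86 doubles, and 124 in glp-1(e2141). For lbp-3 the most alike were heh-1, nas-20 and pho-14, with 0.99, 0.99 and 0.98 over the 7 strains, and heh-1 read 82.5 CPM in WT, 59.1 in daf-2(e1370) and 97.2 in its mu86 double. For lbp-2 they were C09D4.2, K10B3.1 and gpc-2, with 0.89, 0.93 and 0.90 over the 7 strains. For lbp-5 they were C16H3.3, CELE_K08D8.3 and F16C3.2, with 0.94, 0.93 and 0.89.

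lbp-7 was most like hid-1, C15C7.5 and fat-4, with 0.97, 0.95 and 0.95 over the 7 strains. lbp-9 was most like F35C11.5, lsy-22 and CELE_R04D3.2, with 0.99, 0.93 and 0.93. For the sparse lbp-8 the list was CELE_H25K10.4, T27A10.8 and spp-4, at 0.982, 0.933 and 0.897 over the 10 strains. Over the 7 WT and daf-2 strains these were 0.96, 0.97 and 0.78.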

How the data were processed

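RNA-seq of whole worms gave 50 libraries in 10 strains of 5. The authors aligned reads with TopHat2 2.0.9 and Bowtie2 2.1.0 to build ce10 and used Cuffdiff 2.1.1, per the submitters' processing notes, and deposited estimated counts per gene entry, 72.2% of them within 0.02 of a whole number. These expected counts were rounded to whole numbers. The 314 entries without a gene (0.187 to 0.48% of fragments) were left out, repeated entries were summed and 33458 were kept. The table had 0 columns of other samples.

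Loci listed at 0 throughout a strain but with a mean of at least 1000 fragments in another were taken as not estimated and left out, 10 in the daf-2 fit and 1 in the glp-1 fit. edgeR 4.0.16 (filterByExpr, TMM, robust quasi-likelihood fit, strain as the factor) tested all entries of WT and the daf-2 strains together, the glp-1 strains together, and all 50 libraries for the contrast between families. Calls have a Benjamini-Hochberg adjusted p under 0.05. The fitting was tested on simulated data. Displayed CPM are scaled by TMM over all 50 libraries and rest on the fragment totals given in the report. Exon lengths come from the WBcel235 annotation, used for lengths and gene positions relative to each other only.

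Same-numbered libraries of daf-2(e1368) and its doubles deviated together, with correlations of 0.20 to 0.87 for mg54 and 0.12 to 0.81 for mu86, over 0.1 in all 5 pairs, so a fit with the replicate as a block is given there. Alternatives were RLE size factors, DESeq2 1.42.0, no filter, the block, those loci kept, the compared strains alone, and libraries left out. The lists hold the LIPL-4 and LBP-8 route, NHR-49 and NHR-80 targets, far genes, acyl-CoA binding proteins, nuclear receptors and cofactors, lipid droplet genes, DAF-16 targets and markers of 7 tissues. Named are every member, list genes that passed, and the 3 entries most like each member. The members and lists were chosen with earlier results of these data known.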

Additional observations from a re-analysis of the deposited data

Results flagged for a closer look

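In 4 of 70 groups of 5 libraries examined, 1 library lay far from the others, and chance flags about 1 in 20 groups. In daf-2(e1370), replicate 2, the shallowest library, had 143 CPM of lbp-2 where the others had 220 to 243, and 16 CPM of lbp-3 where the others had 24.9 to 27.6. In the mg54 double of daf-2(e1368), replicate 3 had 39.1 CPM of lbp-3 beside 33.3 to 34.7 in the others. In the mg54 double of glp-1(e2141), replicate 4 had 163 CPM of lbp-5 beside 79.9 to 99.0 in the others.

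The effect of daf-16 differed between backgrounds for lbp-1, by 0.78 on the log2 scale between daf-2(e1370) and daf-2(e1368) and by 0.91 between daf-2(e1370) and glp-1(e2141). For lbp-8, glp-1(e2141) and daf-2(e1370) differed in this effect by -0.97, daf-2(e1370) being lower (edgeR adjusted p = 0.038), from 3 to 92 fragments per library.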

How the results depend on the processing

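In each comparison that called lbp-1, its direction held in every alternative run and its call in all of them, apart from the 3 fits that leave out 1 library of glp-1(e2141) or its mg54 double. No called difference of a member turned its direction. Beside the lbp-2, lbp-3 and lbp-8 calls lost or gained in the report, calls were gained for lbp-3 against WT in daf-2(e1370) under 3 of 17 alternatives (0.0467 with the replicate block) and for its daf-16 effect set against glp-1(e2141) under 12 of 37, and for lbp-8 in glp-1(e2141) against mg54 with DESeq2 (0.0352) and against mu86 without replicate 3 of that double (0.0478). lbp-5 gained a call between the daf-2 alleles (0.0393 with the block) and for the daf-2(e1370) doubles against WT (0.0295 with the block), lbp-7 against WT without replicate 3 of daf-2(e1370) (0.0291), and lbp-2 for its effect set against glp-1(e2141) under 2 of 37 and against the mu86 double of daf-2(e1370) without its replicate 1 (0.0348). The cause was not tested.

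Members called in daf-2(e1370) against its mg54 double were 2 with RLE size factors, with DESeq2 and with the replicate block, and 3 without replicates 0 and 1 of both doubles or with the unestimated loci kept, which brings in the zeros of lbp-4. Over all entries, 22.3% (2621 of 11774) were called there in the main fit, and 5348 with the block. Keeping those loci gave 2 for daf-2(e1370) against WT and for glp-1(e2141) against either double. In the main fits 18.2%, 3.04% and 3.1% of all entries were called in these comparisons. DESeq2 gave 2 for glp-1(e2141) against mg54, where it called 623 entries, beside 316 in the main fit. Against WT, daf-2(e1370) had 2 with the block or without those replicates, and its doubles 2 with the block. The block called 3344 and 646 entries in these comparisons, beside 2147 and 153 in the main fit. With the compared strains fitted alone the number was 1 for daf-2(e1370) against mu86 and against daf-2(e1368), 2 for daf-2(e1368) against either double, and 1 for the daf-16 effect in daf-2(e1370) set against that in glp-1(e2141), where no filter on low counts also gave 1. The main fits called 21.5%, 8.43%, 2.83% (mg54), 4.24% (mu86) and 7.24% of all entries in these comparisons. Leaving out 1 library at a time gave 1 to 2 for daf-2(e1370) against mg54, 1 to 3 against WT, 0 to 1 and 1 to 2 for glp-1(e2141) against mg54 and mu86, and 1 to 4 for the effect in daf-2(e1370) set against glp-1(e2141). Over all entries these fits called, in the same order, 1962 to 3126, 1763 to 2115, 162 to 397, 190 to 585 and 716 to 1063.

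In daf-2(e1370) 4 of 5 same-numbered pairs correlated over 0.1 with each double, and in glp-1(e2141) 1 and 0 of 5, short of the 5 of 5 required here to treat same-numbered libraries as pairs. Of the 5 daf-2(e1370) libraries, 5 were most like their own number in mg54 and 4 in mu86. Over all entries the replicate block gave 5348 and 4109 calls for daf-2(e1370) against mg54 and mu86, 696 and 1030 for daf-2(e1368), 147 and 147 for glp-1(e2141), 3344 and 666 for the alleles e1370 and e1368 against WT, 646 and 86 for their doubles against WT, 2963 between the alleles and 3668 for their daf-16 effects. With the compared strains alone the calls were 1014, 1313 and 192 for daf-2(e1370) against mg54 and mu86 and glp-1(e2141) against mu86, 98 for the daf-2(e1370) doubles against WT and 566 for the effect against glp-1(e2141). DESeq2 gave 233 and 84 for the doubles against WT and 623 and 603 in glp-1(e2141). Keeping the loci gave 371 for daf-2(e1368) against WT and 1561 between the alleles, and 1743 were called there without replicates 0 and 1 of the doubles. Leaving out 1 library gave 90 to 183 and 32 to 53 for the doubles of e1370 and e1368 against WT, 348 to 705 for the daf-16 effects of the alleles, and 162 to 397 and 190 to 585 in glp-1(e2141).

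Depth limits lbp-8 most, with as few as 3 fragments in a library. The planned search for motifs near the genes was not run.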
